A study of Mus musculus with 46 samples.

Results

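Endothelial cells of the kidney differ with the vessel they line, and 10 genes that are used to tell these vascular beds apart were followed here in sorted kidney cells. The genes were chosen by name from the 53465 rows of the expression table, 1 row for each. Ehd3 and Plat mark glomerular endothelium, Plvap and Emcn fenestrated and other capillary endothelium, Gja5, Sox17 and Efnb2 arterial endothelium, Nr2f2 venous endothelium, and Prox1 and Flt4 lymphatic endothelium. Male wild-type C57BL/6 mice aged 8 to 12 weeks had undergone sham surgery, unilateral ureteric obstruction (UUO), in which 1 ureter is blocked, or reversible UUO (rUUO), in which the block is later undone by reimplanting the ureter. According to the methods, obstructed mice were culled on day 2 or day 7 and rUUO mice 14 days after reimplantation, and the sample labels do not say which UUO day was sequenced. No mouse carried a transgene, so the populations were defined by the antibody or lectin used to sort them. They were CD31+ endothelial cells, PDGFRB+ stromal cells, F4/80+ macrophages and LTL+ proximal tubular cells, LTL being a lectin that binds proximal tubules. The CD31+ sort gave 4 samples after sham, 3 after UUO and 4 after rUUO, the PDGFRB+ sort 4 of each, the F4/80+ sort 4, 4 and 3, and the LTL+ sort 3, 4 and 3. In all, 44 samples were used, and p-values measure the spread between them.

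As background, glomerular capillaries filter plasma through open pores, peritubular capillaries take up reabsorbed fluid through pores closed by a diaphragm, and arterial and venous identity is set by Notch signalling and by the nuclear receptor encoded by Nr2f2. Lymphatic endothelium is specified by the transcription factor encoded by Prox1 and grows in response to ligands of the receptor encoded by Flt4. Obstruction is known to thin the capillary bed of the kidney, and PDGFRB+ stroma holds pericytes, fibroblasts, vascular smooth muscle, mesangial cells and renin cells.

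Promoters were looked up because several of the genes moved together in stromal cells, as described below. In RefSeq tables for GRCm38.p6, 7 of the 10 genes had a promoter entry, namely Ehd3, Emcn, Gja5, Efnb2, Nr2f2, Flt4 and Prox1, the last with 2. On GRCm38, in the coordinates of the table, Gja5 lies at chr3:96904693-97077416, Efnb2 at chr8:8617434-8661242, Ehd3 at chr17:73804841-73832093, Emcn at chr3:137341067-137432185 and Plvap at chr8:71497765-71511752. Of the other 5, Plat lies at chr8:22757727-22782844, Sox17 at chr1:4490931-4497354, Nr2f2 at chr7:70351944-70366735, Prox1 at chr1:190118035-190170714 and Flt4 at chr11:49609263-49652739, and all 10 are protein-coding. The 250 bases before the start site are shown for Gja5, Efnb2 and Ehd3, which fell in PDGFRB+ cells after UUO, and for Emcn, the most abundant of the 10 genes in CD31+ cells. Capitals mark GGAAG or its reverse complement CTTCC, the core bound by ETS factors.
Gja5, chr3:97032152-97032401, + strand: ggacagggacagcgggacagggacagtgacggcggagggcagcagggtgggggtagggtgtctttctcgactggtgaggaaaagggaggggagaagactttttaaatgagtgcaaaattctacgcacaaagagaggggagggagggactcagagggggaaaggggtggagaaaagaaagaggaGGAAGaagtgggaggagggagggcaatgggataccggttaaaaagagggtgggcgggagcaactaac
Efnb2, chr8:8661243-8661492, - strand: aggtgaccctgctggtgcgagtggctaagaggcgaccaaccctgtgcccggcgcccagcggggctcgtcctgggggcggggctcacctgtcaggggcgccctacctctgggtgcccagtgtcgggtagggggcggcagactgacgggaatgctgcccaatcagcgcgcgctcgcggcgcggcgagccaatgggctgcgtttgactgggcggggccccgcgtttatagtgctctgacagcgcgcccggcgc
Ehd3, chr17:73804591-73804840, + strand: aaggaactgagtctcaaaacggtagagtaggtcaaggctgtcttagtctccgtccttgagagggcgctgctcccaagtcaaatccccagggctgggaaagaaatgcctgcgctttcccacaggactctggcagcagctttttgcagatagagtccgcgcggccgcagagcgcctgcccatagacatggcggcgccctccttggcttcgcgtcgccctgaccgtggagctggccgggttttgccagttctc
Emcn, chr3:137340828-137341077, + strand: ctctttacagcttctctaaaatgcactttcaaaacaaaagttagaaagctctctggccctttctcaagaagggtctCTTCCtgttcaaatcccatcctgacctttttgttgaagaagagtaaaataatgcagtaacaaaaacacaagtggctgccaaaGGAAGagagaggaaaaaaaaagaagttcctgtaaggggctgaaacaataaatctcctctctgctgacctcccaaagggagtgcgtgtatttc
Gja5 held the ETS core 1 time and Emcn 2 times, while the windows of Efnb2 and Ehd3 did not hold these letters. Searched on both strands, the core occurred in 64.1% of 32851 mouse promoters of the same length, so a match is common. The RBPJ core TGGGAA, found in 21.6% of promoters, occurred 2 times before Ehd3 and in none of the other 3 windows shown. The SOX core ACAAT occurred 1 time before Emcn (27.7% of promoters), and the nuclear receptor motif AGGTCA occurred 2 times before Emcn and 1 time before Ehd3 (14% of promoters). TGGGAA followed by G also holds GGAAG, so these 2 motifs can overlap. The matches are a description of letters in these windows.

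Expression was given as FPKM, a measure of fragments scaled to both transcript length and library total, so that levels can be compared between genes per unit of length. The table holds no counts and the absolute depth is unknown. In CD31+ samples the FPKM sum ranged from 634754 to 766788, relative depth from 0.818 to 1.25 of the median of all 44 samples, and the share of FPKM in mitochondrial genes from 27.2% to 43.5%. CD31+ sham replicate 4 had the highest mitochondrial share of the CD31+ samples, and CD31+ sham replicate 3 the most RNA of the thick ascending limb (804 FPKM summed over 5 genes, against a median of 286 FPKM in CD31+ sham). In sham kidneys, each of 12 pan-endothelial genes was higher in CD31+ cells than in each of the other 3 populations, so the label of the sort matched its markers.

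In CD31+ cells from sham kidneys the markers covered a wide range of levels. Emcn, which encodes the sialomucin endomucin of capillary and venous endothelium, was the most abundant of the 10 at 1441 ± 92.3 FPKM (SD, n = 4). Plat, which encodes tissue plasminogen activator, followed at 795 ± 176 FPKM (SD, n = 4). Ehd3, an endocytic trafficking protein of glomerular endothelium, had 455 ± 146 FPKM (SD, n = 4). The arterial gene Efnb2 had 151 ± 39.2 FPKM (SD, n = 4), Gja5 115 ± 31.5 FPKM and Plvap 106 ± 33.2 FPKM, and the sample ranges of these 3 neighbours overlapped. Sox17 at 53.0 ± 8.44 FPKM and Flt4 at 46.3 ± 10 FPKM (SD, n = 4) likewise had overlapping sample ranges. Nr2f2 had 12.2 ± 2.70 FPKM and Prox1 3.18 ± 2.10 FPKM (SD, n = 4), so the venous and the lymphatic transcription factor were the lowest of the 10.

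The question of how far each marker belonged to the endothelial sort was addressed by comparing sham populations by limma, fitted to log2(FPKM + 1), and p-values were adjusted over all genes tested (Benjamini-Hochberg). This scale understates the change of low genes, and genes high in CD31+ cells alone passed the filter of a mean of 1 FPKM through those cells. Against LTL+ cells, 9 of the 10 genes were higher in CD31+ cells, where 62.3% of all genes differed, with a median log2 difference of 6.05 for the markers and 0.93 for all genes. Nr2f2 was the exception, at 9, 14.8 and 11.6 FPKM in LTL+ sham samples, a log2 difference of 0.05 (95% interval -0.78 to 0.88, limma adjusted p = 0.926) that turned to -0.72 after rescaling without mitochondrial genes and -1.01 after quantile normalization. Against F4/80+ cells, again 9 of 10 were higher (45.7% of all genes differed), with a median of 5.42 against 0.07 for all genes. Prox1 was not called there (0.70, adjusted p = 0.147).

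PDGFRB+ cells shared far more of these markers. Against them, 8 of 10 genes differed, where 24.2% of all genes did, and 6 of the 8 were higher and 2 lower in CD31+ cells, with a median log2 difference of 1.88 against -0.08 for all genes. Gja5, which encodes the gap junction protein connexin 40 of arterial endothelium and of renin cells, had 356, 368, 352 and 266 FPKM in PDGFRB+ sham samples and 106, 119, 155 and 78.9 FPKM in CD31+ sham samples. The groups did not overlap, as was the case for 24.2% of all genes, and Gja5 was 1.57 lower on the log2 scale in CD31+ cells (SE 0.22, limma adjusted p = 3.23e-05 for a difference of -1.57). Nr2f2 had 102, 145, 130 and 141 FPKM in PDGFRB+ sham and 9.24, 12.6, 15.7 and 11.4 FPKM in CD31+ sham samples, a log2 difference of -3.31 (SE 0.37, limma adjusted p = 1.78e-06). Every stromal sham sample was thus above every endothelial one. For Efnb2 (0.62, 95% interval -0.06 to 1.29, adjusted p = 0.191) and Prox1 (0.37, 95% interval -0.43 to 1.18, adjusted p = 0.545) no difference was called.

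Expressed as a percentage of the CD31+ level, the sham PDGFRB+ mean was 1058% for Nr2f2, 293% for Gja5, 68.4% for Prox1, 66.2% for Efnb2, 32.9% for Plvap and 20.1% for Ehd3. Plat stood at 5.23%, Emcn at 2.71%, Flt4 at 1.98% and Sox17 at 1.70%. The 12 pan-endothelial genes gave a median of 2.33%, from 1.23% to 46.4% for Eng, the endoglin gene. Esam (17.5%) and Tek (10.9%) were the next highest of these, and Pecam1, which encodes CD31 itself, was at 1.91%. After UUO the median of the pan-endothelial genes was 1.40% and after rUUO 1.82%.

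**Figure D1:**
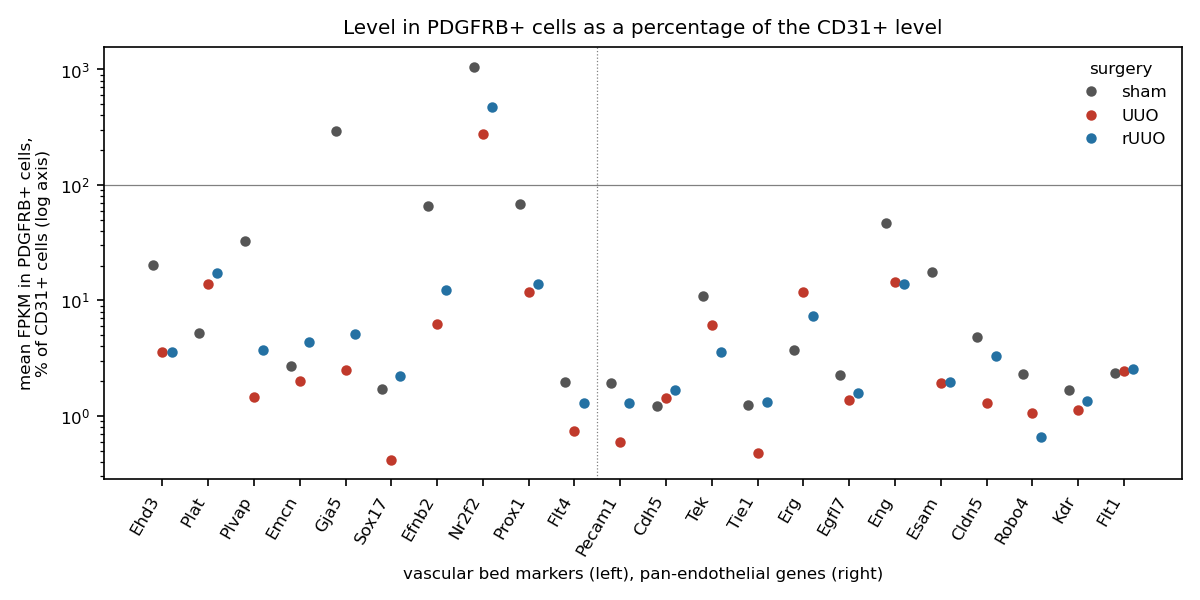
Mean FPKM in PDGFRB+ cells as a percentage of the mean in CD31+ cells of the same surgery (vertical log axis, %), for the 10 vascular bed markers on the left and 12 pan-endothelial genes on the right, with 1 point per surgery. In sham, Nr2f2 and Gja5 lie above 100%, and after UUO and rUUO Gja5, Plvap, Efnb2 and Ehd3 lie below their sham points.

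The main question was how the markers differed with surgery within CD31+ cells. In UUO against sham, limma called 1 of the 10 genes, Plvap, where 265 of 13393 genes or 1.98% were called, and 5 of the 10 had an unadjusted p under 0.05. The share of all genes at that unadjusted level is not given, here or below. Counts at that level are therefore not read as a result. The 2 groups did not overlap for 3 of the 10 genes, which was the case for 11.0% of all genes. The median log2 change was 0.01 for the markers and 0.03 for all genes. In bulk samples, fewer cells of a bed and less RNA per cell cannot be told apart, and this holds for each change below.

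Plvap, which encodes the diaphragm protein of fenestrated capillaries, had 129, 124, 57.0 and 113 FPKM in CD31+ sham samples and 206, 172 and 266 FPKM in CD31+ UUO samples. In rUUO it had 166, 149, 157 and 116 FPKM, where the lowest sample lay inside the sham range. Every UUO sample lay above every sham and every rUUO sample, and sham replicate 3 lay far below the other sham samples. Plvap rose in UUO by 1.06 on the log2 scale (SE 0.26, 95% interval 0.51 to 1.61, limma adjusted p = 0.0484). The call sits at the threshold: it held under 1 of 9 alternative settings (adjusted p from 0.0497 to 0.204) and in none of 11 fits that each left out 1 sample, where the change ranged from 0.79 without sham replicate 3 to 1.21. In rUUO the log2 change from UUO was -0.53 (adjusted p = 0.504) and that from sham was 0.53 (adjusted p = 0.336), neither called.

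Emcn, the other capillary marker, had 1547, 1479, 1334 and 1405 FPKM in sham, 1082, 1314 and 957 FPKM in UUO, and 1112, 1323, 1001 and 1113 FPKM in rUUO. Every sham sample lay above every UUO and rUUO sample, yet the log2 changes of -0.38 in UUO (adjusted p = 0.30) and -0.35 in rUUO (adjusted p = 0.29) against sham did not pass.

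Ehd3, the glomerular marker, had 536, 559, 484 and 242 FPKM in sham and 214, 286 and 141 FPKM in UUO. In rUUO it had 253, 397, 292 and 388 FPKM. The low sham sample, replicate 4, overlapped the UUO samples. Its UUO change on the log2 scale was -1.07 (SE 0.29, 95% interval -1.69 to -0.46, limma adjusted p = 0.0773) and did not pass, while without sham replicate 4 it was -1.35 (adjusted p = 0.0115). It also passed after rescaling without mitochondrial genes (-1.20, adjusted p = 0.0432) and after centring each sample on the pan-endothelial genes (-1.22, adjusted p = 0.0252), and over the 9 settings the adjusted p ran from 0.0252 to 0.315. Against UUO the rUUO change was 0.67 (adjusted p = 0.452) and against sham -0.41 (adjusted p = 0.52). Plat, the second glomerular marker, did not follow this pattern, with 902, 945, 781 and 553 FPKM in sham, 806, 774 and 746 FPKM in UUO and 576, 834, 697 and 941 FPKM in rUUO. Its groups overlapped, and its log2 change in UUO was -0.01 (95% interval -0.44 to 0.42).

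Of the arterial genes, Gja5 had 106, 119, 155 and 78.9 FPKM in sham, 100.5, 109 and 136 FPKM in UUO, and 86.5, 73.6, 94.1 and 75.7 FPKM in rUUO. Every UUO sample lay above every rUUO sample, with a log2 change of -0.48 in rUUO against UUO (adjusted p = 0.47), and the UUO change from sham was 0.04 (95% interval -0.42 to 0.50). Efnb2, which encodes ephrin B2, a ligand of arterial cells that meets its receptor on veins, had 154, 186, 168 and 95.3 FPKM in sham, 124, 112 and 98.2 FPKM in UUO and 118, 126, 135 and 139 FPKM in rUUO. Only sham replicate 4 brought the Efnb2 groups to overlap, and its UUO change of -0.40 (95% interval -0.85 to 0.05, adjusted p = 0.443) did not pass. Sox17, a transcription factor of arterial endothelium, had 46.7, 64.0, 46.1 and 55.2 FPKM in sham and 32.6, 25.9 and 92.5 FPKM in UUO, so that 2 UUO samples lay below and 1 above all sham samples. Its rUUO values were 42.0, 40.7, 55.2 and 35.5 FPKM. The UUO change of -0.29 (adjusted p = 0.79) became -0.83 without UUO replicate 4 (adjusted p = 0.108).

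The venous gene Nr2f2, which encodes the nuclear receptor COUP-TFII, had 9.24, 12.6, 15.7 and 11.4 FPKM in sham, 14.01, 17.4 and 62.0 FPKM in UUO and 41.0, 28.5, 44.3 and 19.2 FPKM in rUUO. All rUUO samples were above all sham samples, whereas the UUO samples overlapped sham and 1 of them, replicate 4, exceeded every other CD31+ sample. The log2 change was 1.33 in rUUO against sham (SE 0.39, 95% interval 0.51 to 2.15, limma adjusted p = 0.111) and 0.99 in UUO against sham (adjusted p = 0.306), neither called, and the latter was 0.35 without UUO replicate 4. The rUUO change passed in 1 of 9 settings, the fit on all 12 groups (adjusted p = 0.0331), and in 1 of 11 fits that left out a sample, the one without UUO replicate 4 (adjusted p = 0.0164). Because Nr2f2 was higher in stromal sham cells, the stromal RNA in CD31+ samples is given beside it. In these samples 6 fibroblast genes summed to 30.2 to 55.4 FPKM in CD31+ sham, 29.7 to 59.2 FPKM in UUO and 30.7 to 60.5 FPKM in rUUO, and 7 smooth muscle and pericyte genes to 89.5 to 114, 72.9 to 107 and 154 to 212 FPKM, so that the smooth muscle and pericyte sum was higher in every rUUO sample than in every other CD31+ sample. None of these genes was called in CD31+ cells, and of 3 mesangial genes Serpine2 rose in rUUO against sham (1.74, limma adjusted p = 0.000427), while Itga8 (-0.93) and Gata3 (-0.56) were not called. The part of stromal RNA in the Nr2f2 values was not tested.

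For lymphatic endothelium, Flt4, which encodes VEGF receptor 3, had 49.1, 56.5, 46.9 and 32.6 FPKM in sham, 75.2, 69.4 and 61.5 FPKM in UUO and 76.8, 71.2, 78.2 and 76.2 FPKM in rUUO. Every UUO and rUUO sample was above every sham sample. The log2 change was 0.58 in UUO (adjusted p = 0.184) and 0.72 in rUUO (SE 0.19, 95% interval 0.33 to 1.12, limma adjusted p = 0.0647) against sham, short of the threshold. It passed in none of 9 settings and in 2 of 11 fits that left out a sample, those without sham replicate 2 (0.0429) and without UUO replicate 4 (0.0479). Prox1, the other lymphatic gene, was low and variable, with 1.51, 3.45, 6.04 and 1.71 FPKM in sham, 5.70, 1.90 and 2.04 FPKM in UUO and 5.48, 2.35, 7.31 and 4.34 FPKM in rUUO. The Prox1 groups overlapped, with log2 changes of 0.03 in UUO and 0.54 in rUUO against sham (95% intervals -0.95 to 1.01 and -0.36 to 1.45). The highest sham value was that of replicate 3, the sample with the most thick ascending limb RNA, and the part of tubular RNA in it was not tested.

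**Figure D2:**
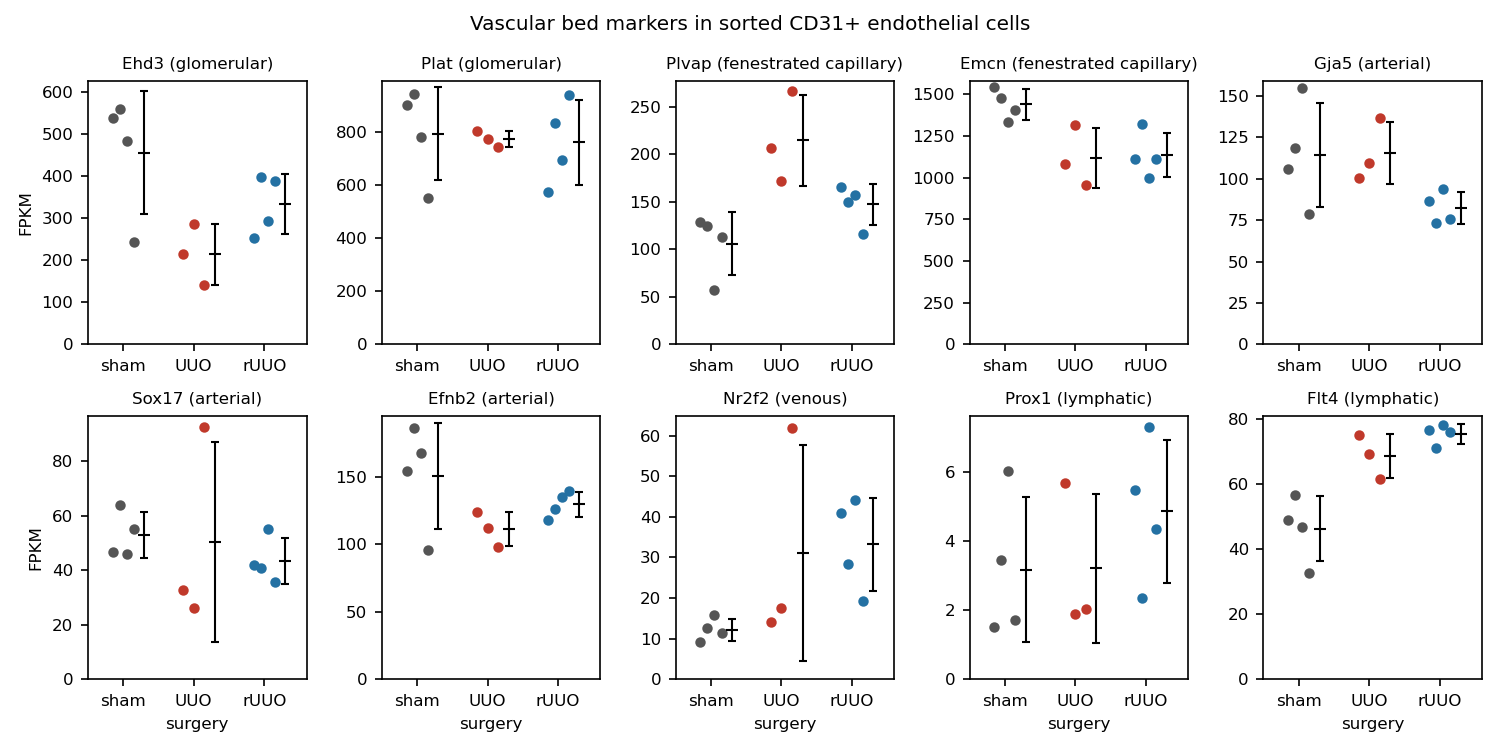
FPKM of each vascular bed marker in CD31+ cells (vertical axis, linear from 0) by surgery, with 1 point per sample and a bar for the mean ± SD. Plvap is highest in the 3 UUO samples, Flt4 is higher in every UUO and rUUO sample than in sham, and Nr2f2 and Sox17 each have 1 UUO sample that stands apart.

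In rUUO against UUO none of the 10 genes was called by limma (0.0597% of all genes were), 2 had an unadjusted p under 0.05, and 2 had groups that did not overlap (11.3% of all genes). In rUUO against sham none was called either (1.77% of all genes). There, 5 had an unadjusted p under 0.05, and 3, Flt4, Nr2f2 and Emcn, had groups that did not overlap (9.82% of all genes). The median log2 change was 0.08 for the markers and 0.16 for all genes in rUUO against UUO, and -0.12 against 0.19 in rUUO against sham. Both rUUO comparisons thus carried a small shift of all genes, relative to which single changes are read.

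**Figure D3:**
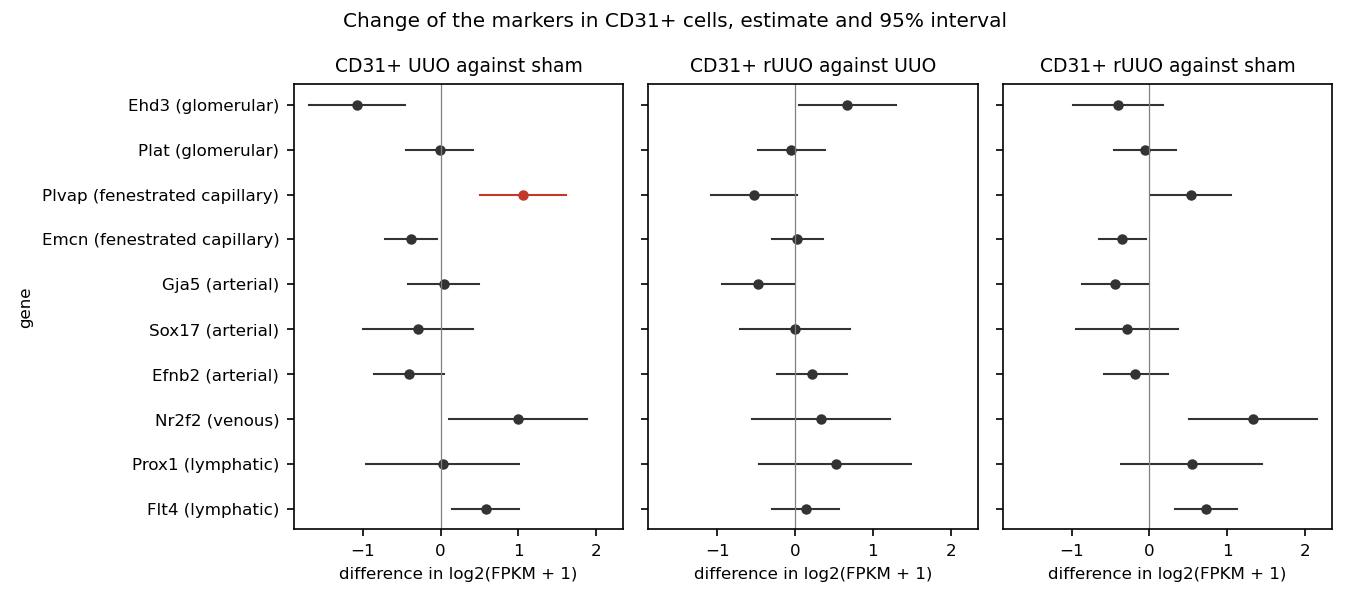
Difference in log2(FPKM + 1) of each marker in CD31+ cells (horizontal axis) with its 95% interval, for the 3 comparisons of surgeries, in red where the limma adjusted p was under 0.05. Plvap in UUO against sham is the single red point, at 1.06, and Nr2f2 and Flt4 in rUUO against sham have intervals above 0 without passing the adjusted threshold.

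Other genes of each bed, from lists that do not hold the 10 markers, were counted in the same fits. Of 9 glomerular genes, 3 fell and none rose in UUO against sham, with a list median of -1.09. Sost, which encodes the Wnt inhibitor sclerostin, had 9.33, 12, 9.87 and 8.75 FPKM in sham, 0.48, 0.08 and 0.26 FPKM in UUO and 0.22, 0.27, 0.29 and 0.33 FPKM in rUUO. Its log2 change was -3.11 in UUO (limma adjusted p = 0.000162) and -3.10 in rUUO (adjusted p = 6.77e-05), so Sost was near 0 in every obstructed and every reversed sample. Pi16 fell from 301, 274, 324 and 210.2 FPKM in sham to 109, 111 and 74.5 FPKM in UUO (-1.49, adjusted p = 0.000869) and was 110, 144, 114 and 143 FPKM in rUUO (-1.11, adjusted p = 0.00532). Lpl, which encodes lipoprotein lipase, fell by 1.52 in UUO (a change of -1.52, adjusted p = 0.0277). Lpl was not confined to the endothelial sort, with sham means of 116 FPKM in F4/80+, 47.2 FPKM in PDGFRB+, 45.7 FPKM in CD31+ and 21.7 FPKM in LTL+ cells. After UUO the Lpl mean was lower in F4/80+ (63.2 FPKM) and LTL+ cells (10.1 FPKM) and higher in PDGFRB+ cells (134 FPKM). Gata5, an endothelial transcription factor, had a change of -1.49 in rUUO against sham (adjusted p = 0.0107). In rUUO against sham again 3 of the 9 fell, Sost, Gata5 and Pi16, with a list median of -0.91. Podocytes adhere to glomerular capillaries, and in the same CD31+ samples 5 podocyte genes summed to 292 to 627 FPKM in sham, 318 to 330 FPKM in UUO and 436 to 487 FPKM in rUUO, while 2 of 5 thick ascending limb genes fell in UUO, Egf (-4.06, limma adjusted p = 0.000162) and Slc12a1 (-2.28, adjusted p = 0.011), and Egf also fell in rUUO against sham (-2.99, adjusted p = 0.00103). Thick ascending limb genes summed to 168 to 804 FPKM in sham, against 52.6 to 181 FPKM after UUO and 67.9 to 212 FPKM after rUUO. The part of podocyte or tubular RNA in the glomerular changes was not tested.

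Of 8 capillary genes, 2 rose and 1 fell in UUO, with a median of 0.31. Gpihbp1, which carries lipoprotein lipase to the capillary surface, had 117, 94.7, 147 and 150.3 FPKM in sham, 391, 599 and 499 FPKM in UUO and 270.1, 244, 257 and 274 FPKM in rUUO. The 3 groups were fully apart, with log2 changes of 1.96 in UUO (limma adjusted p = 8.36e-05) and 1.05 in rUUO (adjusted p = 0.00526) against sham. Igfbp3, an insulin-like growth factor binding protein, rose by 1.46 in UUO (adjusted p = 0.000592) and fell by 1.58 in rUUO against UUO (a change of -1.58, adjusted p = 0.00274), returning to 123 to 172 FPKM where sham had 137 to 193 FPKM. Igfbp5, a related protein, had a UUO change of -0.89 (adjusted p = 0.0454). None of 12 arterial genes was called in any of the 3 comparisons, with list medians of -0.28, 0.11 and -0.19.

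Of 6 venous genes, 3 rose in UUO and 4 in rUUO against sham, with list medians of 1.47 and 1.75 where all genes had 0.03 and 0.19. Selp, which encodes the leukocyte adhesion receptor P-selectin, had 3.26, 7.55, 2.69 and 1.64 FPKM in sham, 41.0, 24.7 and 25.9 FPKM in UUO and 60.9, 44.5, 91.6 and 43.5 FPKM in rUUO. Its change was 2.82 in UUO (limma adjusted p = 0.000592) and 3.75 in rUUO (adjusted p = 4.28e-05). Aplnr, the apelin receptor gene, rose by 2.83 in UUO (adjusted p = 7.72e-06) and 2.6 in rUUO (adjusted p = 8.74e-06), from 23.6 to 33.5 FPKM in sham to 145 to 239 FPKM in UUO and 138 to 201 FPKM in rUUO. Nrp2, a co-receptor also used by lymphatic endothelium, rose by 0.92 in UUO (adjusted p = 0.0377) and 1.20 in rUUO (adjusted p = 0.00443). In sham, Nrp2 did not differ between CD31+ and PDGFRB+ cells (0.06, adjusted p = 0.897), and in F4/80+ cells it rose in rUUO against sham as well (1.73, adjusted p = 0.0179). Ackr1, a chemokine-binding protein of venules, was listed at 0 in 3 of 4 sham samples and at 0.09 in the other, and had 6.79, 4.21, 2.35 and 3.84 FPKM in rUUO (adjusted p = 0.0251). It passed the filter through the operated CD31+ samples. In PDGFRB+ cells the Ackr1 mean was 0.705 FPKM in sham and 2.07 FPKM in rUUO, which was not called (0.74, limma adjusted p = 0.392). The remaining venous list genes were not called, as Ephb4 changed by 0.14 in UUO and 0.39 in rUUO against sham and Vwf by 1.29 and 0.36. Of the lymphatic list, 7 of 8 rows were tested and none was called by limma in any comparison, with medians of 0.89 in UUO and 0.90 in rUUO against sham, and Mmrn1 was listed at 0 in every CD31+ sample. Of 12 pan-endothelial genes, Robo4 alone was called in UUO (0.72, adjusted p = 0.0499), and the list medians were 0.25, -0.00 and 0.17.

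**Figure D4:**
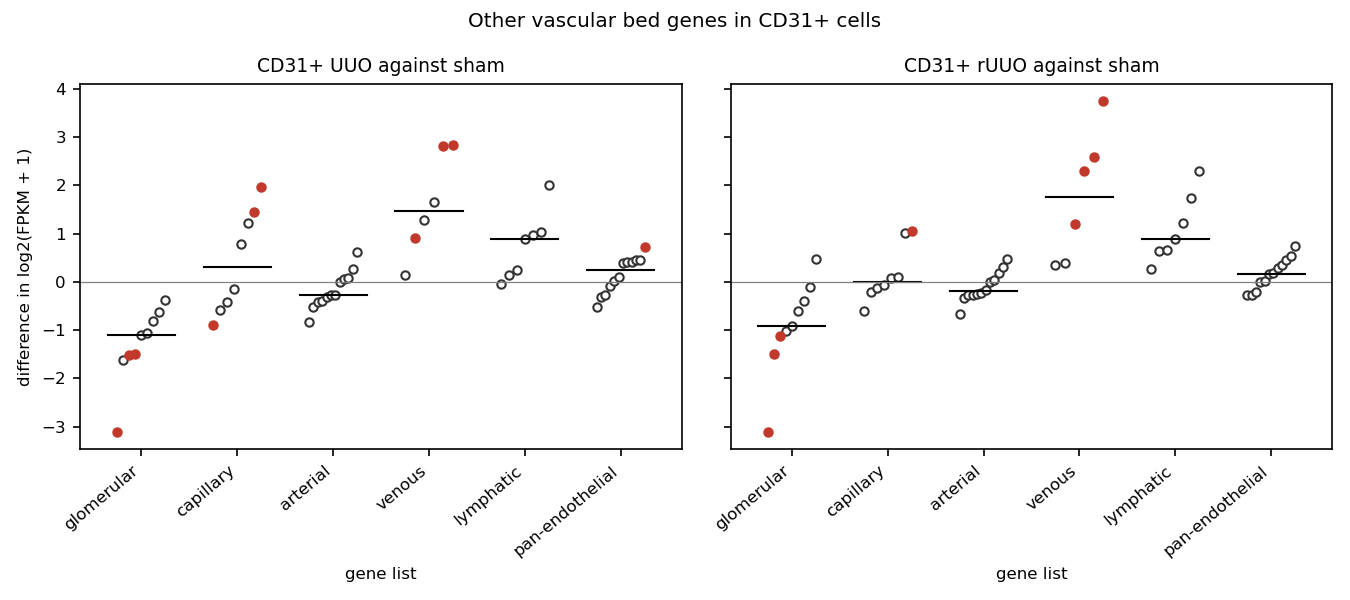
Difference in log2(FPKM + 1) in CD31+ cells (vertical axis) for genes of 5 vascular bed lists and the pan-endothelial list, in UUO (left) and rUUO (right) against sham, with 1 point per gene, filled red where the limma adjusted p was under 0.05, and a line at each list median. Called glomerular genes lie below 0 and called venous genes above 0 in both panels, and no arterial gene is called.

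In PDGFRB+ cells more of the markers were called. Of the 10 genes, 8 passed the filter and Sox17 and Flt4 did not. In UUO against sham, 5 fell and 1 rose, where 26.4% of all genes were called, with a median log2 change of -2.21 for the 8 and -0.07 for all genes. In rUUO against sham, 4 were lower and 1 higher (17.2% of all genes called, medians -1.68 and 0.15), and in rUUO against UUO 2 were higher (4.17% of all genes called, medians 0.73 and 0.19). Groups did not overlap for 5 of the 8 in UUO against sham (26.6% of all genes). They did not overlap for 5 in rUUO against sham (23.9%) and for 2 in rUUO against UUO (11.4%).

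Gja5 went from 356, 368, 352 and 266 FPKM in sham to 3.78, 5.15, 2.16 and 0.57 FPKM in UUO and 7.44, 4.19, 4.04 and 1.16 FPKM in rUUO. Every sham sample was far above every other sample, with a log2 change of -6.59 in UUO (SE 0.42, limma adjusted p = 4.63e-08) and -6.16 in rUUO (adjusted p = 1.42e-07). Across 8 alternative settings the UUO change stayed between -7.14 and -6.59. Renin cells carry connexin 40, and the renin gene Ren1 fell as well, from 218, 135, 19.4 and 128 FPKM in sham to 4.94, 23.5, 11.2 and 4.98 FPKM in UUO and 4.69, 3.24, 0.96 and 3.23 FPKM in rUUO (changes of -3.21 and -4.65, adjusted p = 0.00127 and 8.61e-05). The Ren1 groups of sham and UUO overlapped, as Ren1 was low in sham replicate 3, where Gja5 was not. Other smooth muscle and pericyte genes went both ways. From sham to UUO, mean FPKM rose for Acta2 (139 to 413), Cnn1 (19.7 to 94.3) and Tagln (54.9 to 132). Mean FPKM was lower after UUO for Rgs5 (268 to 220), Myh11 (39.5 to 18.1) and Notch3 (19.9 to 10.3). Of 3 genes of mesangial cells, chosen after their values were seen, 2 fell too: Gata3 from 86.5 to 124 FPKM in sham to 0.56 to 1.90 FPKM in UUO (-5.81, limma adjusted p = 1.08e-08) and Itga8 from 249 to 324 FPKM to 2.86 to 23.8 FPKM (-4.89, adjusted p = 4.37e-07). The third, Serpine2, did not pass (-0.75, adjusted p = 0.12), and the part of these cells in the change of Gja5 was not tested.

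Efnb2 had 92.2, 85.2, 154 and 67.5 FPKM in PDGFRB+ sham, 10.4, 6.21, 2.34 and 8.80 FPKM in UUO and 14.9, 15.8, 11.0 and 21.8 FPKM in rUUO. Its 3 groups were fully apart, and it fell in UUO (-3.74, SE 0.36, limma adjusted p = 1.78e-06) and stayed lower than sham in rUUO (-2.55, adjusted p = 0.000114), while the partial rise from UUO to rUUO, 1.19, did not pass (adjusted p = 0.0739). Ehd3 had 107, 102, 86.6 and 70.3 FPKM in sham, 3.98, 7.89, 14.1 and 4.85 FPKM in UUO and 11.6, 17.5, 8.98 and 9.91 FPKM in rUUO. It was thus lower in all 8 operated samples than in sham, with changes of -3.53 in UUO (adjusted p = 1.02e-06) and -2.86 in rUUO (adjusted p = 1.41e-05). Plvap had 41.2, 32.8, 31.8 and 33.3 FPKM in sham, 1.74, 2.97, 6.73 and 1.16 FPKM in UUO and 7.11, 6.51, 4.33 and 3.91 FPKM in rUUO, with changes of -3.28 (adjusted p = 4.78e-06) and -2.49 (adjusted p = 0.000112). In stromal samples Plvap therefore fell, whereas in CD31+ samples its UUO values were the highest.

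Plat moved the other way. It had 49.3, 50.8, 34.5 and 31.8 FPKM in PDGFRB+ sham, 88.8, 106, 140 and 95.05 FPKM in UUO and 119, 114, 142 and 153 FPKM in rUUO, so all UUO and rUUO samples were above all sham samples. The log2 change was 1.36 in UUO (SE 0.20, limma adjusted p = 0.000119) and 1.66 in rUUO (adjusted p = 3.08e-05).

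Emcn had 46.2, 36.7, 36.1 and 37.2 FPKM in sham, 13.6, 21.8, 40.4 and 14.5 FPKM in UUO and 31.3, 63.0, 58.2 and 45.0 FPKM in rUUO, with 1 UUO sample inside the sham range. It fell in UUO (-0.89, limma adjusted p = 0.04) and rose from UUO to rUUO (1.18, adjusted p = 0.0408), and these calls held under 4 and 2 of 8 alternative settings and in 5 and 3 of 12 fits that left out a sample. Nr2f2 had 102, 145, 130 and 141 FPKM in sham, 49.9, 107, 120 and 67.9 FPKM in UUO and 151, 157, 183 and 140.2 FPKM in rUUO. The rUUO samples were all above the UUO samples, a rise of 0.94 (limma adjusted p = 0.0383) that held under 2 of 8 settings and in 4 of 12 fits without a sample, and the UUO change from sham of -0.65 did not pass (adjusted p = 0.0544) but did in 3 of 8 settings (adjusted p down to 0.00604). Prox1, at 4.10, 2.13, 0.74 and 1.72 FPKM in sham and 0.04 to 1.06 FPKM in UUO, did not pass either (-1.15, adjusted p = 0.0526) but did in 4 of 8 settings (adjusted p down to 0.0102, change down to -2.46). Sox17 was at 0.13 to 0.30 FPKM in UUO and 0.18 to 2.09 FPKM in sham, and Flt4 at 0.37 to 0.71 FPKM and 0.41 to 1.31 FPKM.

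**Figure D5:**
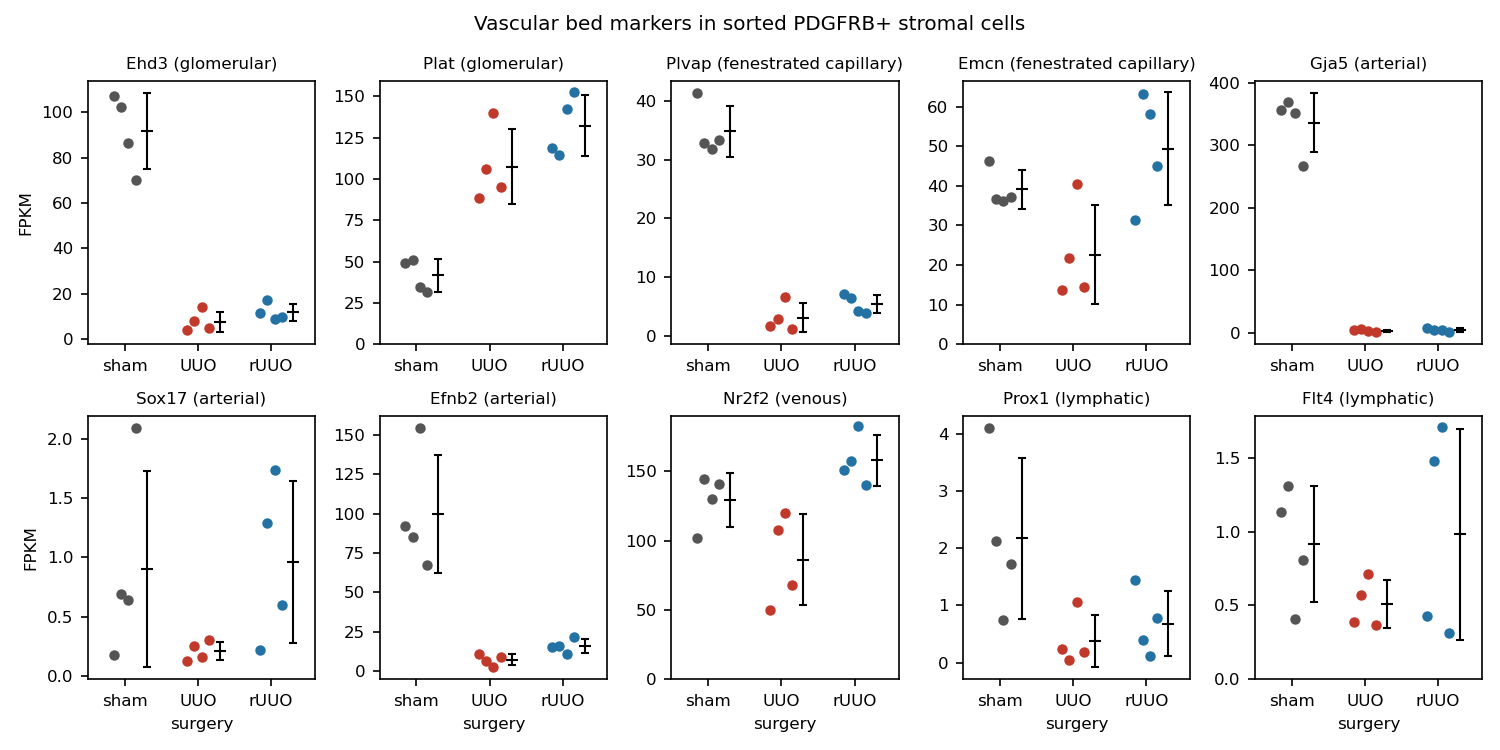
FPKM of each vascular bed marker in PDGFRB+ cells (vertical axis, linear) by surgery, with 1 point per sample and a bar for the mean ± SD. Gja5, Efnb2, Ehd3 and Plvap are high in the 4 sham samples and low in all 8 UUO and rUUO samples, while Plat is higher in UUO and rUUO.

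The stromal changes stood beside changes of other genes in the same samples. Of 11 pan-endothelial genes tested in PDGFRB+ cells, 4 fell (Esam -2.53, Eng -2.03, Tek -1.06 and Pecam1 -1.05) and Erg rose (1.71) in UUO, with a list median of -0.95, and the list summed to 230 to 299 FPKM in sham, 84.4 to 127 FPKM in UUO and 83.3 to 129 FPKM in rUUO. Of 11 arterial genes tested, 6 fell and 3 rose, with Fbln2 (4.93), Gja4 (-2.48) and Nrp1 (-2.04) changing most. All 5 thick ascending limb genes, 6 of 7 proximal tubule genes and 4 of 5 podocyte genes tested were lower in UUO as well, while 5 of 6 fibroblast genes were higher. The other fibroblast gene, Pdgfrb, encodes the antigen of this sort. Its means were 212 FPKM in sham, 117 FPKM in UUO and 129 FPKM in rUUO. The mitochondrial share of FPKM in PDGFRB+ samples lay between 34.0% and 45.8% after sham surgery, above 21.5% to 26.4% after UUO and 20.2% to 25.9% after rUUO, and the changes of Gja5, Efnb2, Ehd3 and Plvap passed under all 8 alternative settings, among them rescaling without mitochondrial genes. The part of endothelial, tubular or podocyte RNA in the stromal changes was not tested.

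The difference between the populations was itself tested as an interaction over the 12 groups. The UUO change in CD31+ cells minus that in PDGFRB+ cells differed from 0 for 6 of the 10 genes, where 13.1% of all genes did. It was 6.63 for Gja5 (SE 0.46, limma adjusted p = 8.66e-13), 4.34 for Plvap (adjusted p = 1.38e-09), 3.34 for Efnb2 (adjusted p = 8.19e-07), 2.46 for Ehd3 (adjusted p = 0.000497) and 1.64 for Nr2f2 (adjusted p = 0.0364), that is less negative or more positive in CD31+ cells. For Plat it was -1.36 (adjusted p = 0.032), as Plat rose in PDGFRB+ cells and had a change of -0.01 in CD31+ cells. The call of Nr2f2 was lost in 3 of 8 alternative settings (adjusted p up to 0.0727) and that of Plat in 4 of 8 (up to 0.0631), so that 4 to 6 genes were called. Minus the LTL+ change it differed from 0 for Efnb2 alone (-2.06, adjusted p = 0.00187), where 11.1% of all genes differed, and minus the F4/80+ change for none (2.31% of all genes), with 2 of 10 at an unadjusted p under 0.05.

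In LTL+ cells 6 of the 10 genes passed the filter. Efnb2 had 0.95, 0.75 and 0.80 FPKM in sham, 4.35, 4.34, 5.98 and 4.70 FPKM in UUO and 3.15, 4.87 and 3.97 FPKM in rUUO. All operated samples were above all sham samples, with a rise of 1.66 in UUO (SE 0.27, limma adjusted p = 0.000354) and 1.43 in rUUO (adjusted p = 0.00578). Efnb2 thus rose in LTL+ samples and fell in PDGFRB+ samples. In the same LTL+ samples 7 of 8 proximal tubule genes fell in UUO. Those that rose were 2 of 5 thick ascending limb genes, Umod (3.01, limma adjusted p = 3e-06) and Cldn16 (1.72, adjusted p = 0.00201), and all 4 smooth muscle and pericyte genes tested. Gata3 of the mesangial list (2.67, adjusted p = 4.88e-05) and Pdpn of the lymphatic list (1.68, adjusted p = 0.00344) rose too. On the same lists, Serpine2 (0.71, adjusted p = 0.268) and Itga9 (0.86, adjusted p = 0.0629) were not called. Itga8 of the mesangial list did not pass the filter, with means of 0.413 FPKM in sham and 0.628 FPKM in UUO. Thick ascending limb genes summed to 25.1 to 29.1 FPKM in sham, 146 to 189 FPKM in UUO and 49.5 to 145 FPKM in rUUO, proximal tubule genes to 4649 to 5494, 1994 to 3057 and 2812 to 3005 FPKM, and their part in the Efnb2 rise was not tested. Plat was called in UUO (0.80, adjusted p = 0.0462), from 3.10, 5.74 and 5.06 FPKM in sham to 8.03, 6.64, 12.4 and 8.17 FPKM. Its groups did not overlap, which was the case for 40.6% of all genes in this comparison. The call held under 3 of 8 settings and in 3 of 10 fits without a sample. In all, 2 of the 6 were called in UUO against sham, where 32.8% of all genes were and the median of all genes was 0.51. None was called in rUUO against UUO (3.83% of all genes, 1 of 6 at an unadjusted p under 0.05) and 1 in rUUO against sham (7.46%). In F4/80+ cells 7 genes were tested and limma called none in UUO against sham (4.99% of all genes), rUUO against UUO (0%) or rUUO against sham (3.44%), and none had an unadjusted p under 0.05.

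The genes whose pattern was most like each marker were listed by Pearson's r of log2(FPKM + 1), as a description, since the samples share surgeries, sorts and scaling. Over the 11 CD31+ samples, Ehd3 was most like Nrp1 (r = 0.971), Alpl (0.970) and Kdr (0.958), and among the markers most like Efnb2 (0.86). Flt4 was most like Sbno2 (0.974) and Syncrip (0.970), and Nr2f2 like Adgrg3 (0.935). Between markers the lowest r was that of Emcn with Nr2f2 (-0.80), followed by that of Ehd3 with Plvap (-0.71). Over all 44 samples, in which the differences between the sorted populations dominate, Emcn was most like Ptprb (0.989), Flt4 like Btnl9 (0.991), Sox17 like Cyyr1 (0.986), Gja5 like Kank4 (0.966) and Plvap like Esam and Ehd3 (both 0.972), whereas Nr2f2 had an r of 0.10 to 0.51 with the other markers.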

How the data were processed

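RNA of CD31+, PDGFRB+, F4/80+ and LTL+ cells sorted from mouse kidneys was amplified to cDNA (Ovation V2 kit), and libraries were run on an Illumina HiSeq. The authors deposited FPKM values per gene on GRCm38, rounded to 2 decimals, and the submitters' processing notes name FastQC, Bowtie2, RSEM, DESeq2 and mm10. Of 46 value columns 44 were used. The other 2 share the name of 1 CD31+ UUO sample and were left out. No column was named for LTL+ sham replicate 3. The LTL+ UUO sample numbered 2 carries both SHAM and UUO in its title and was placed in UUO by its treatment label. The table holds no counts, so no counting interval is given and relative depth was read from the steps between low values.

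A pseudocount of 1 was added to FPKM before taking log2, genes whose mean over the samples of a fit was under 1 FPKM were dropped, and limma was run (lmFit, then eBayes allowing a trend with intensity). P-values were adjusted by the Benjamini-Hochberg method and called under 0.05. Each population was fitted over its 3 surgeries, sham samples were fitted over 4 populations, and interactions over 12 groups. Alternatives were a pseudocount of 0.1, no filter, TPM, rescaling without the 37 mitochondrial genes, quantile normalization, no trend, the replicate number as a block, centring on 12 pan-endothelial genes, a fit on all groups, and each sample left out. A block of surgery and number was added after seeing the data. All 10 markers were named in every comparison, with at most 3 called genes per bed list and comparison, markers of other cell types beside a result, and the 3 genes most like each marker. Of the latter, the highest are printed. Further arterial and pan-endothelial genes in PDGFRB+ cells, Nrp2 in rUUO and the 3 mesangial genes were named after their values were seen. The same holds for Ephb4, Vwf, Itga9 in LTL+ cells, and Lpl, Nrp2 and Ackr1 outside CD31+ cells. It also holds for Pdgfrb and for smooth muscle and pericyte genes other than Ren1 in PDGFRB+ cells. The markers and lists were chosen with earlier results of these data known. The result of 1 gene is not reported here. Promoters came from RefSeq (GRCm38.p6). The limma fit was tested on simulated data. Python 3.11.15 (numpy 2.4.6, pandas 2.3.3, scipy 1.17.1, matplotlib 3.10.9) and R 4.3.3 (limma 3.58.1) were used.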

Additional observations from a re-analysis of the deposited data

Results flagged for a closer look

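In groups of 4 samples, 80 of which were examined over the 10 markers, 3 held a sample far from the others, where chance gives about 1 in 20. Plvap in CD31+ sham replicate 3 was 57.01 FPKM, below 113 to 129 FPKM in the other 3. Emcn in PDGFRB+ sham replicate 1 was 46.25 FPKM, above 36.1 to 37.2 FPKM. Gja5 in PDGFRB+ sham replicate 4 was 266.12 FPKM, below 352 to 368 FPKM, and PDGFRB+ sham replicate 4 also had the highest mitochondrial share of the PDGFRB+ samples (45.8%).

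The UUO change of 6 markers differed between CD31+ and PDGFRB+ cells and that of 1 marker between CD31+ and LTL+ cells, by the limma interaction test, a count of 6 that was 4 to 6 over 8 alternative settings, where Nr2f2 and Plat lost their calls in 3 and 4 of them. The differences in log2 change from PDGFRB+ cells were 6.63 for Gja5, 4.34 for Plvap, 3.34 for Efnb2, 2.46 for Ehd3, 1.64 for Nr2f2 and -1.36 for Plat. The difference from LTL+ cells was -2.06 for Efnb2.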

How the results depend on the processing

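In CD31+ cells the number of markers called in UUO against sham was 0 in place of 1 with no filter, TPM, quantile normalization, no intensity trend, the replicate block and the fit on all 12 groups, and ranged from 0 to 1 when a sample was left out. With rescaling without mitochondrial genes, with centring and without sham replicate 4 the 1 gene called was Ehd3, not Plvap. In rUUO against sham it was 1 with the fit on all 12 groups and 0 to 2 when a sample was left out (2 without UUO replicate 4). The interaction with LTL+ gave 2 markers after rescaling without mitochondrial genes, 3 after quantile normalization, 2 with the replicate block and 2 with the block of surgery and number (1 to 2 with a sample left out), and that with F4/80+ gave 1 with the latter block.

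Over all genes, UUO against sham gave 127 calls with no filter, 165 with no trend, 101 with the replicate block and 423 with the fit on all 12 groups (146 without UUO replicate 1 to 231 without rUUO replicate 6). In the same order, rUUO against UUO gave 0, 5, 0 and 67, with 4 at a pseudocount of 0.1 and 3 after quantile normalization (3 without rUUO replicate 4 to 10 without UUO replicate 4), and rUUO against sham gave 116, 128, 68 and 452, with 151 after centring (119 without rUUO replicate 4 to 336 without UUO replicate 4). Deviations of samples of the same replicate number had r of -0.045 to 0.046 over 9 pairs across surgeries in CD31+ cells and, across populations, -0.079 to 0.159 over 21 pairs in sham, -0.029 to 0.066 over 21 in UUO and -0.035 to 0.046 over 15 in rUUO. Not every pair exceeded 0.1, so the number is not taken as a pairing. With so few samples per group these r values cannot show whether populations of the same replicate number came from the same mouse. The labels do not say either, and the main fits treat the samples as independent.

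Changes near 0 turned sign. In UUO against sham in CD31+ cells, Prox1 was -0.07 after rescaling without mitochondrial genes and -0.12 after centring, and Gja5 was -0.09 and -0.11 under the same settings and -0.06 after quantile normalization. In rUUO against UUO, Sox17 was 0.00 at a pseudocount of 0.1, 0.08 with TPM, 0.07 after rescaling and 0.08 with the block, and Plat was 0.04 with TPM, 0.02 after rescaling and 0.03 after quantile normalization. Plat in rUUO against sham was 0.01 with TPM. Nr2f2 in sham CD31+ against LTL+ cells was -0.72 after rescaling and -1.01 after quantile normalization, and in PDGFRB+ rUUO against sham -0.04 after quantile normalization. With a sample left out, UUO against sham ranged from -0.36 to 0.32 for Prox1, -0.12 to 0.20 for Gja5, -0.17 to 0.08 for Plat and -0.83 to 0.07 for Sox17. Likewise rUUO against UUO ranged from -0.36 to 0.54 for Sox17, -0.06 to 0.97 for Nr2f2, -0.16 to 0.08 for Plat and -0.08 to 0.15 for Emcn, Plat in rUUO against sham from -0.22 to 0.07, and Nr2f2 in sham CD31+ against LTL+ cells from -0.12 to 0.21. The cause was not tested. The 9 and 9 markers higher in sham CD31+ cells than in LTL+ and F4/80+ cells and the 8 that differed from PDGFRB+ cells were the same number in every fit that left out a sample. The calls of Gja5, Efnb2, Ehd3, Plvap and Plat in PDGFRB+ UUO and rUUO against sham held under all 8 settings and in all 12 fits that left out a sample. Without counts, the depth behind low genes such as Prox1 is unknown.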
